A study of Homo sapiens with 12 samples.

Results

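CIITA and CD74 were followed through their H3K27ac peaks in 6 single clones of the established cell line SUDHL4, a diffuse large B-cell lymphoma of the germinal-centre subtype. H3K27ac, acetylated lysine 27 of histone H3, marks active promoters and enhancers. All peaks inside 2 hg19 windows were members, namely chromosome 16 from 10900000 to 11100000 around CIITA (200 kb) and chromosome 5 from 149750000 to 149830000 around CD74 (80 kb). Overlapping peaks of the 6 lists were fused to merged regions, which gave 37 members among 48876 regions of the genome, 21 in the CIITA window and 16 in the CD74 window. They held 159 of the 235688 peaks of all lists.

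CIITA is the master coactivator of MHC class II transcription. It does not bind DNA itself but is recruited to class II promoters by RFX, CREB and NF-Y, which sit on the X and Y boxes, and it is transcribed from alternative promoters of which one is typical of B cells. CD74, the invariant chain, is a CIITA target: it fills the class II groove in the endoplasmic reticulum, steers the complex to endosomes, and at the surface is also a receptor for the cytokine MIF. CREBBP and EP300 are paralogous acetyltransferases that place H3K27ac, and class II genes of germinal-centre B cells are known CREBBP targets.

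All 6 clones were made in SUDHL4 with CRISPR/Cas9 and isolated by limiting dilution, so each clone descends from 1 cell. The controls were 2 WT clones, intact at CREBBP and EP300 but themselves edited at PPP1R12C. The CREBBP-KO clones were made with guides to exon 15 and exon 20, and the EP300-KO clones with guides to exon 17 and exon 24, and loss of the protein was checked by the submitters. The title of the CREBBP-KO clone with the exon 15 guide names a different exon. The 12 samples were 6 immunoprecipitated libraries with 1 peak list each and 6 inputs, which entered only through those lists. Nothing in the labels tied a clone of 1 genotype to a clone of another.

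The lists were not of equal length, which touches every value that follows. Both EP300-KO lists, with 35054 and 35841 peaks, were shorter than all others (36096 to 46940), and the covered length per clone was 32.6 ± 1.83 Mb for WT, 31.7 ± 4.86 Mb for CREBBP-KO and 26.1 ± 0.104 Mb for EP300-KO (mean ± SD, n = 2 each). Read depth per library is unknown. Where clones are ordered by covered length below, the share of all tiles or regions with the same order was not counted. The B-cell genes MS4A1, CD79A and PAX5 and the housekeeping gene ACTB had a region at their start with a peak in all 6 clones, and CD3E (T cells), CD14 (monocytes) and ALB (liver) had none in any.

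The CD74 promoter is shown first, since CIITA acts through such sequences. In the RefSeq table (GRCh38.p14) the 250 bases before its start lie at chr5:150412911-150413160 on the minus strand, another build than that of the peaks. They are printed 5′ to 3′ with a Y box (CCAAT) and RFX motifs (AGNAAC, part of the X box), each searched on both strands, in capitals.

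CD74 promoter: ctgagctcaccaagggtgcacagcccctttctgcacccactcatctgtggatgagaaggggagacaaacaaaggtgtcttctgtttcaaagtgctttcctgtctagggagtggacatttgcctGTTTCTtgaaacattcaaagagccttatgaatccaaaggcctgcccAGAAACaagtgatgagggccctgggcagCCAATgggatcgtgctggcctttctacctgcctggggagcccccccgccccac

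The order of an RFX motif and then a Y box is the arrangement of class II promoters. It also stood in the promoters of HLA-DRB1 and HLA-DQA1, 2 class II chains described further on. The HLA-DQB1 promoter held 2 Y boxes and no exact match to AGNAAC. A site that departs from these letters is missed by this search, so the arrangement cannot be called absent there. The matching stretches are set side by side, with both motifs in capitals and 10 bases of flank. They lie at chr5:150412949-150413001 (minus strand), chr6:32589880-32589937 (minus strand) and chr6:32637294-32637352 (plus strand) of GRCh38.p14.
CD74: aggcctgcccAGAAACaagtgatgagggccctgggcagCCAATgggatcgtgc
HLA-DRB1: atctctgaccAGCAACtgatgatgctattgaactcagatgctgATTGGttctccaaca
HLA-DQA1: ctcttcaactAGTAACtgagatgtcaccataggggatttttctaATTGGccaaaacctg

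Counted from the start, the RFX motif of CD74 began at base -81 and its Y box at base -53, with 22 bases between them, against 27 bases in HLA-DRB1 and 28 in HLA-DQA1. CD74 reads the Y box as CCAAT and the 2 class II chains as ATTGG, its reverse complement. Of 35116 promoters of the table, 34.6% held a Y box, 42.4% an RFX motif and 1.6% an RFX motif followed by a Y box within 40 bases in this order before the start. These are matches of letters and show no binding. No match to a CRE core (TGACG) or an interferon-gamma activated site (TTCNNNGAA) lay within 250 bases before and 50 after the CD74 start, motifs that 24.6% and 7.66% of promoters held. An interferon-stimulated element (GAAANNGAA) matched once, on the opposite strand, at base -172, a motif that 8.11% of promoters held. The CIITA promoter is not shown.

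Both loci were rich in H3K27ac in every clone. Per clone, from 13.6 to 18.6 kb of the CIITA window and from 6.89 to 12.5 kb of the CD74 window lay under peaks. Genome tiles of the same width were counted where any of the lists had a peak. The values exceeded those of at least 94.6% of such tiles for CIITA and at least 92.5% for CD74. In the CIITA window 12 of 21 regions had a peak in all 6 clones, and in the CD74 window 3 of 16 did, against 44.8% of all regions. In the CD74 window 8 regions were listed in 1 clone only, 7 of them in the first WT clone, and in the CIITA window 3 were, against 22.7% of all regions.

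The CIITA window reached 18.6 and 17.4 kb of covered length in the WT clones, 15.3 and 18.1 kb in the CREBBP-KO clones and 13.6 and 14.05 kb in the EP300-KO clones. Both EP300-KO clones lay below all others, while 1 CREBBP-KO clone was below both WT clones and the other between them. In a bulk library, fewer cells with the mark at a site and less of the mark per cell cannot be told apart. Covered length was compared with limma on log2(covered bases + 100), centred on the median of each clone over features covered in all 6 clones. Tiles entered if 2 or more clones covered them by 500 bases or more, and p-values were adjusted over all of these (Benjamini-Hochberg).

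The mean covered length of the CIITA window was 13.8 ± 0.293 kb in EP300-KO and 18.0 ± 0.869 kb in WT (SD, n = 2), or 77.0% of WT. Against the other tiles the difference was small: -0.17 on the centred log2 scale (SE 0.07), limma's adjusted p = 0.178, with 30.0% of the 6074 tiles lower still and 9.29% of them past the threshold of 0.05. CREBBP-KO differed from WT by -0.031 (SE 0.07, limma's adjusted p = 0.886), where 0.0329% of tiles passed. The direct comparison of EP300-KO with CREBBP-KO gave -0.14 (SE 0.07, limma's adjusted p = 0.229), where 14.7% of tiles passed. The CIITA window as a whole passed in none of these comparisons.

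In the CD74 window the WT clones had 12.5 and 9.63 kb under peaks, the CREBBP-KO clones 8.00 and 9.06 kb and the EP300-KO clones 6.89 and 7.57 kb. All 4 knock-out clones lay below both WT clones, and the genotypes did not overlap. The share of all tiles with this order was not counted, and the EP300-KO lists were the shortest. The mean of 7.23 ± 0.481 kb in EP300-KO was 65.3% of the 11.1 ± 2.04 kb in WT, and the 8.53 ± 0.751 kb in CREBBP-KO were 77.1% of it. The WT clones themselves differed, and without the first of them the centred log2 differences given next shrank to -0.28 in EP300-KO and -0.16 in CREBBP-KO.

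The centred log2 difference of the CD74 window was -0.39 (SE 0.11) in EP300-KO, limma's adjusted p = 0.104, where 7.34% of 9184 tiles passed. In CREBBP-KO it was -0.27 (SE 0.11), limma's adjusted p = 0.400, where 0.0218% passed. EP300-KO and CREBBP-KO differed by -0.12 (SE 0.11, limma's adjusted p = 0.544), where 12.0% passed. No difference passed the threshold, and 18.2%, 16.1% and 36.3% of tiles were lower still in these comparisons. Both comparisons with WT share the 2 WT clones. For a single value, an exact permutation test of 2 clones against 2 cannot go below p = 0.333, so the plot of covered length by clone carries no such test.

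**Figure D1:**
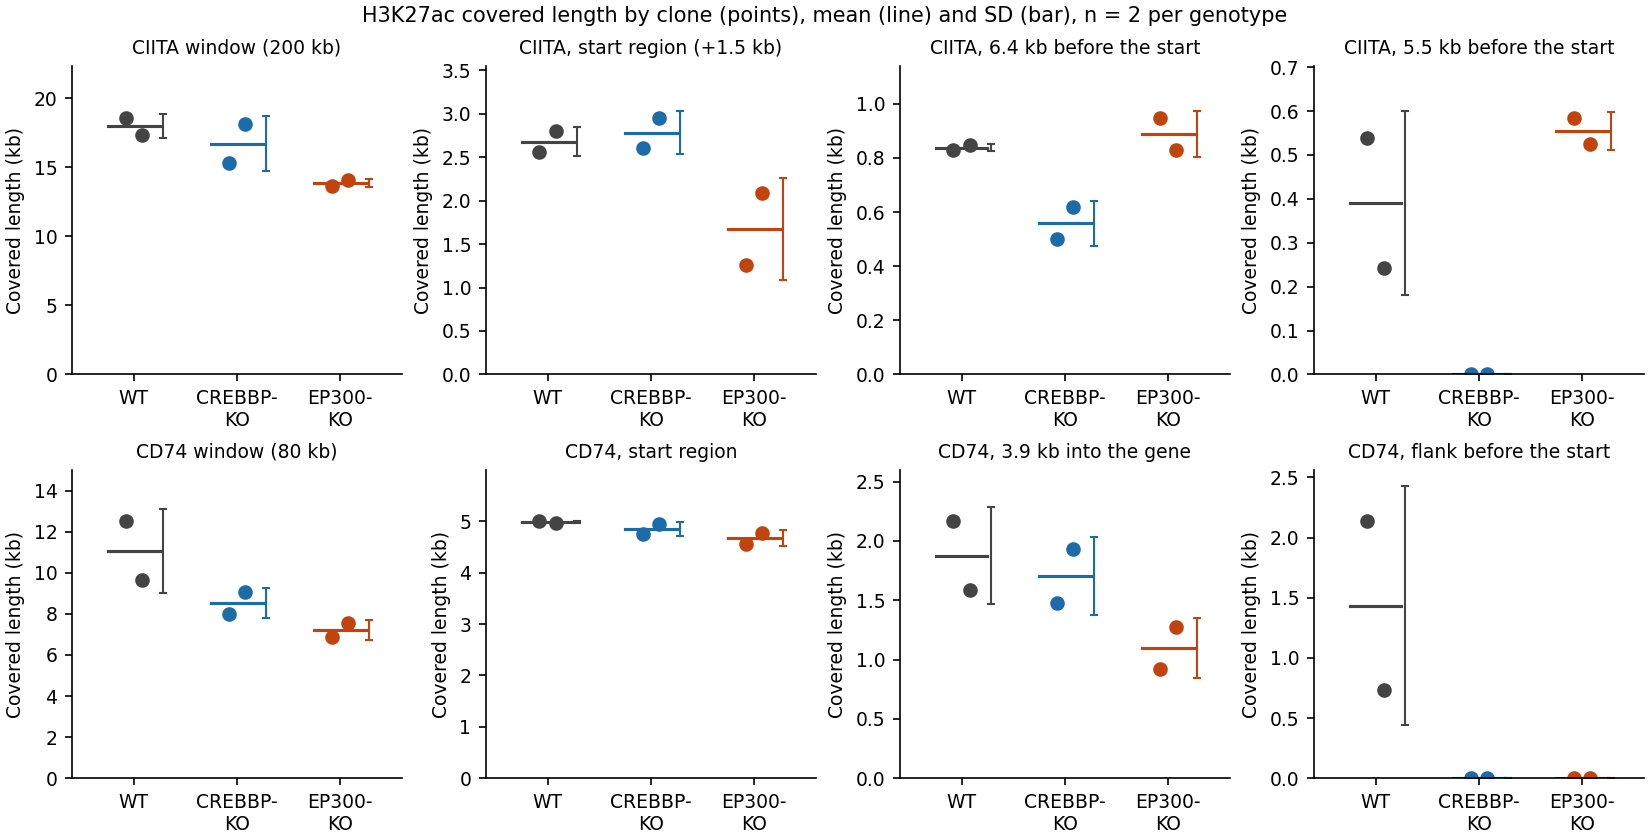
Covered length (kb, linear axis from 0) by genotype in both windows and in 6 stretches inside them. Points are clones, horizontal lines means and vertical bars SD (n = 2). The EP300-KO clones lie lowest in both windows, the CREBBP-KO clones are at 0 in the CIITA region 5.5 kb before the start, and all 4 knock-out clones are at 0 in the CD74 flank.

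The single regions were compared in 1 limma fit over the 19860 regions of the genome that 2 or more clones covered by 500 bases or more. Of the 37 members 16 entered, 13 around CIITA and 3 around CD74; the others were too short. Against WT no member passed in CREBBP-KO, where 0.0101% of all regions did, and none in EP300-KO, where 6.25% did. Before adjustment, limma's p was under 0.05 for 3 members in CREBBP-KO (2 lower, 1 higher) and for 3 in EP300-KO (all lower). The 1 higher member, at 8.3 kb of CIITA, met the filter only through the CREBBP-KO clones. In the direct comparison 2 members were higher in EP300-KO than in CREBBP-KO and none lower, and both stood before the CIITA start. Of all regions 8.00% passed there in either direction, 1259 lower and 330 higher in EP300-KO.

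The median log2 difference over the 16 tested members was -0.014 in CREBBP-KO against 0.024 over all tested regions, -0.0033 in EP300-KO against 0.057, and -0.16 in the direct comparison against 0.037. Centring raised the differences from WT in this region fit, by 0.20 for EP300-KO and by 0.038 for CREBBP-KO. In the window fits it raised them by 0.20 and 0.079 (CIITA) and by 0.21 and 0.095 (CD74), so all log2 values here are relative to the general level of a clone. As an example, the covered length of the CD74 start region was slightly lower in EP300-KO than in WT while its centred difference was above 0.

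**Figure D2:**
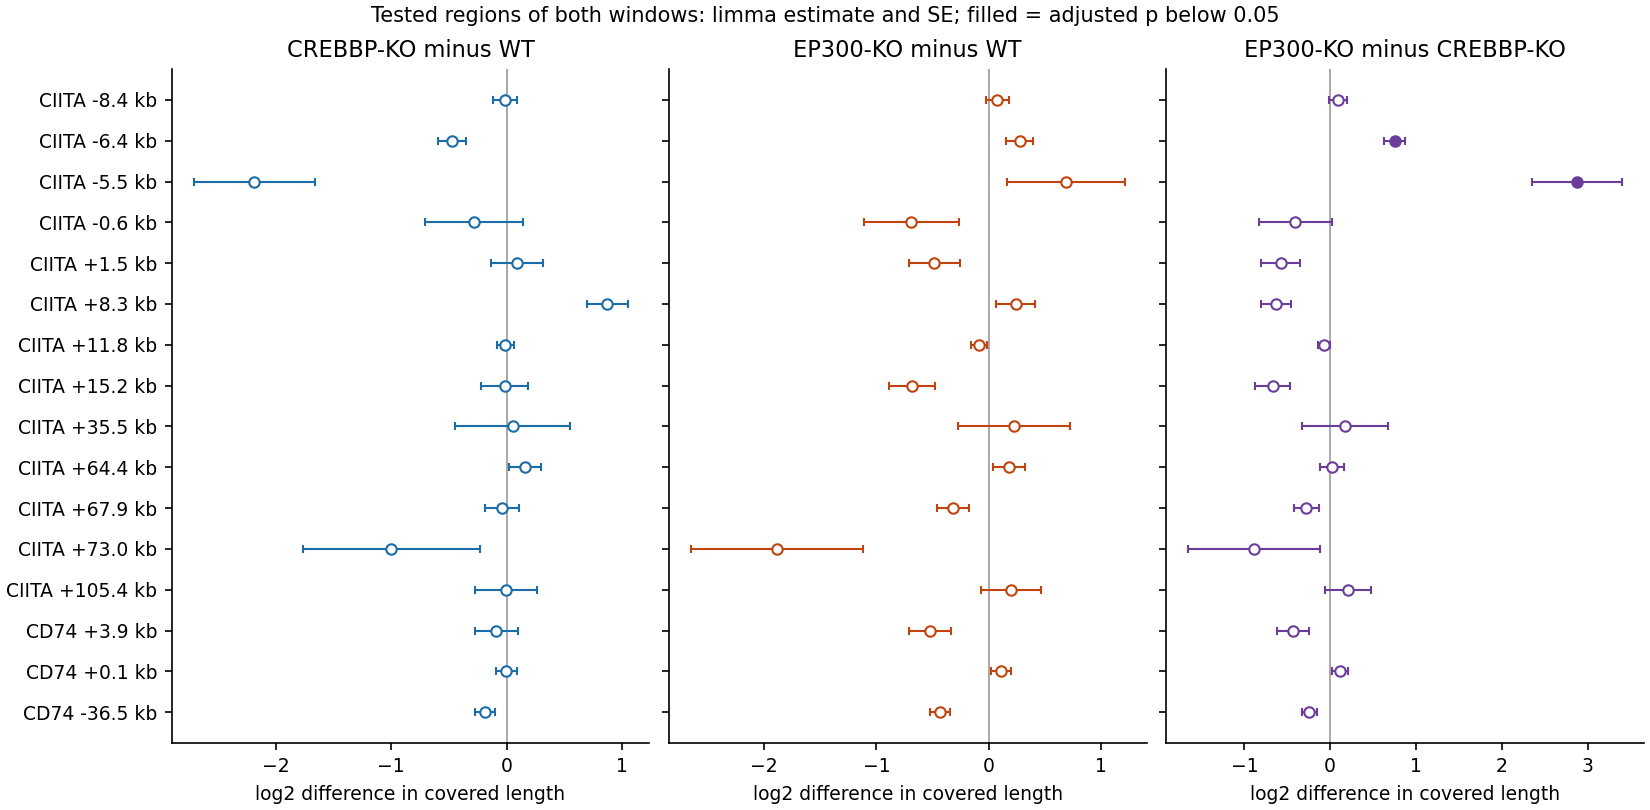
Log2 difference in covered length with its SE for the 16 tested regions, named by gene and distance from its start, in the 3 comparisons. Filled points have an adjusted p below 0.05. The 2 filled points are the CIITA regions near -6.4 and -5.5 kb, which were higher in EP300-KO than in CREBBP-KO by 0.75 and 2.87.

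Before the CIITA start, 4 regions stood between -8.38 and -5.54 kb, on the side where the more upstream of the alternative promoters lies. The outermost (chromosome 16, 10961944 to 10963293) covered 1350 and 1242 bases in WT, 1219 and 1277 in CREBBP-KO and 1138 and 1224 in EP300-KO. Peaks thus covered most of its length in every clone, a length that these same peaks define. A short neighbour at -7.41 kb (10963466 to 10963708) had 159 and 128 bases in WT, 0 and 243 in CREBBP-KO and none in either EP300-KO clone.

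The next 2 regions differed between the knock-outs. At -6.42 kb (10964109 to 10965062) the covered length was 828 and 847 bases in WT, 500 and 618 in CREBBP-KO and 949 and 828 in EP300-KO. Both CREBBP-KO clones were lower than all others, and the EP300-KO clones were at or above the level of WT. The difference between EP300-KO and CREBBP-KO was 0.75 (SE 0.12, limma's adjusted p = 0.028). From WT, CREBBP-KO differed by -0.48 (SE 0.12, limma's adjusted p = 0.394), which did not pass.

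At -5.54 kb (10965145 to 10965770) the WT clones had 538 and 242 bases, both CREBBP-KO clones none, and the EP300-KO clones 585 and 524. The peak was thus missing in the CREBBP-KO lists and present in those of all 4 other clones. EP300-KO was higher than CREBBP-KO by 2.87 (SE 0.53, limma's adjusted p = 0.037), a size that depends on the added 100 bases because 1 group is at 0. The region met the filter only through the first WT clone and both EP300-KO clones, so its entry came from the groups where it is high. In the fit with no filter on low values the difference was also 2.87 (limma's adjusted p = 0.020). CREBBP-KO against WT gave -2.19 (SE 0.53, limma's adjusted p = 0.365). Each of the 2 calls ended when either CREBBP-KO clone was left out (limma's adjusted p from 0.0936 to 0.112) or the first EP300-KO clone was (0.111 at -6.42 kb and 0.489 at -5.54 kb). The second also ended without the second EP300-KO clone (0.375).

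**Figure D3:**
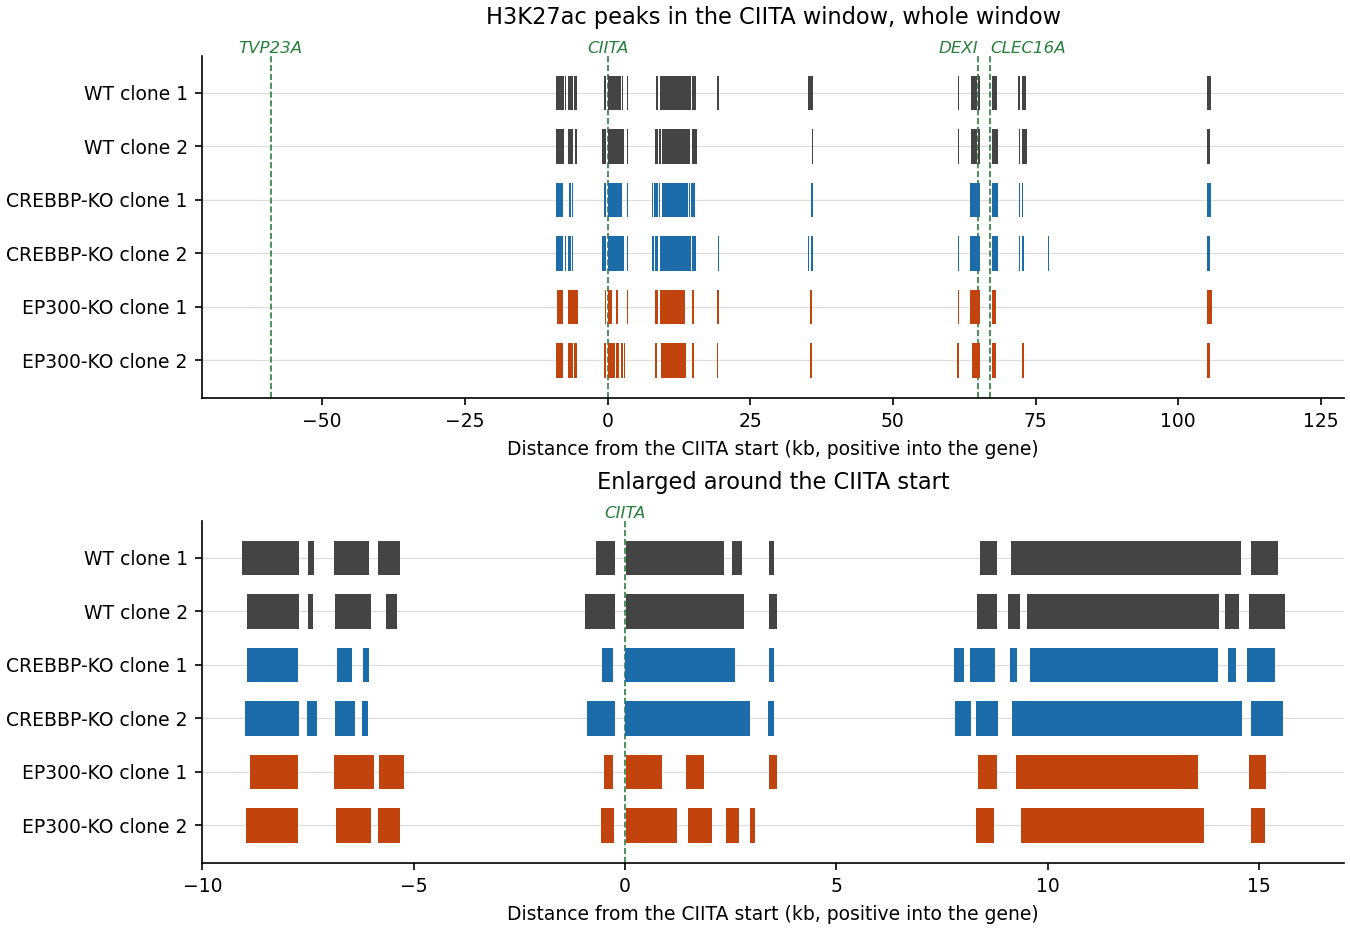
Peaks of each clone (blocks, to scale, coloured by genotype) against the distance from the CIITA start in kb, for the whole window (top) and around the start (bottom). Dashed lines mark gene starts. The CREBBP-KO clones have no block near -5.5 kb, and the peak after the start ends earlier in both EP300-KO clones than in the other 4.

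At the start itself every list had the same break, a gap without a peak. The peak after it began between -0.004 and 0.023 kb from the start used here. The gap measured 269 and 254 bases in WT, 285 and 232 in CREBBP-KO and 314 and 289 in EP300-KO. The region before the gap (10970059 to 10970763) had 427 and 699 bases in WT, 254 and 662 in CREBBP-KO and 207 and 299 in EP300-KO. Here the EP300-KO clones were below WT, and the CREBBP-KO clones were split, 1 low and 1 high. The centred difference of EP300-KO from WT was -0.69 (SE 0.43, limma's adjusted p = 0.345), which did not pass.

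The region after the gap (10970996 to 10973951) covered 2558 and 2797 bases in WT, 2608 and 2956 in CREBBP-KO and 1258 and 2088 in EP300-KO. Both EP300-KO clones were below the other 4. The difference from WT was -0.48 (SE 0.23, limma's adjusted p = 0.252), and from CREBBP-KO -0.58 (SE 0.23, limma's adjusted p = 0.179). CREBBP-KO stood at 0.090 from WT (SE 0.23, limma's adjusted p = 0.960). The EP300-KO clones differed from each other, so these values turned on which of them was kept. Without the second, limma gave -0.82 from WT (adjusted p = 0.030) and -0.91 from CREBBP-KO (adjusted p = 0.021). Without the first, it gave -0.13 (adjusted p = 0.690) and -0.22 (adjusted p = 0.550), in each case with the lone clone assumed to vary like the other groups.

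The unbroken peak that follows the CIITA start ended 2.35 and 2.81 kb into the gene in WT, at 2.61 and 2.95 kb in CREBBP-KO and at 0.866 and 1.23 kb in EP300-KO. Its mean width was 2564 ± 330 bases for the WT clones, 2782 ± 246 for the CREBBP-KO clones and 1026 ± 257 for the EP300-KO clones (SD, n = 2). Ranked by the authors' score, this peak stood above 79.0% and 81.2% of the peaks of its own list in WT, 82.3% and 89.9% in CREBBP-KO and 74.2% and 80.4% in EP300-KO, so the ranks of WT and EP300-KO overlapped. The width of a single peak depends on where a list breaks it. At the start of the neighbour DEXI the peak was 336 ± 21.2 bases wide in WT and 1507 ± 197 in EP300-KO, although the region around it was covered to nearly the same length in both.

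Within the gene, the longest CIITA region (10980054 to 10985582, centred 11.82 kb after the start) covered 5435 and 5168 bases in WT, 4833 and 5432 in CREBBP-KO and 4313 and 4340 in EP300-KO. It held more acetylated sequence than the start region in every clone, and the EP300-KO clones were the lowest in bases. On the centred scale their difference from WT was small, at -0.085 (SE 0.07, limma's adjusted p = 0.460). The region just before it at 8.30 kb (10978790 to 10979814) had 389 and 476 bases in WT, 821 and 875 in CREBBP-KO and 461 and 431 in EP300-KO. It was the only tested CIITA region with p under 0.05 before adjustment and a higher value in CREBBP-KO than in WT (0.87, SE 0.17, limma's adjusted p = 0.301).

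Just behind it, at 15.15 kb (10985701 to 10986601), the values were 651 and 848 bases in WT, 670 and 758 in CREBBP-KO and 406 and 312 in EP300-KO. Both EP300-KO clones were below the others (-0.68 from WT, SE 0.20, limma's adjusted p = 0.118, not past the threshold). Farther into the gene, a region at 35.53 kb (11006055 to 11007015) had 927 and 236 bases in WT, 396 and 609 in CREBBP-KO and 491 and 504 in EP300-KO. The WT clones differed there by more than any other pair of clones of 1 genotype, so no order of genotypes could be read.

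Farther along the CIITA window lie the starts of its neighbours DEXI and CLEC16A. Which gene a region acts on was not tested. The region at the DEXI start (11034554 to 11036270) covered 1526 and 1522 bases in WT, 1686 and 1657 in CREBBP-KO and 1646 and 1368 in EP300-KO, with overlapping genotypes for WT and EP300-KO. At the CLEC16A start (11038372 to 11039468) the values were 956 and 1091 bases in WT, 971 and 957 in CREBBP-KO and 673 and 693 in EP300-KO. The EP300-KO clones were the lowest at CLEC16A but not at DEXI. At CLEC16A their centred difference from WT was -0.32 (SE 0.14, limma's adjusted p = 0.246), which did not pass. The remaining regions found in all 6 clones lay at 61.46 kb (from 119 to 287 bases) and 105.41 kb (from 501 to 839 bases). A region at 73.01 kb was listed in 5 clones, with 791 and 938 bases in WT, 294 and 458 in CREBBP-KO and 0 and 410 in EP300-KO, so all knock-out clones were below WT there. The others were short and patchy: at 3.49 kb 5 clones had from 106 to 194 bases, at 19.38 kb 4 clones had from 150 to 423, and 1 clone each had a peak at 3.02 kb (116 bases), 68.76 kb (101 bases) and 77.20 kb (203 bases).

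By presence, a region counted as lost when the WT clones both had 1 covered base of it or more and the 2 clones of a knock-out had none, and as gained when it was the other way round. Of the 17 CIITA regions in both WT clones, CREBBP-KO lost 1 (at -5.54 kb), where 4.94% of all such regions were lost. EP300-KO lost 2 (at -7.41 kb and at 72.06 kb, 11042849 to 11043274, with 426 and 136 bases in WT and 133 and 207 in CREBBP-KO), where 14.8% of all were lost. None was lost in both. No region of either window was gained, where 9.29% of the regions without a WT peak were gained in CREBBP-KO and 13.0% in EP300-KO. Few members could be gained. Only those at 3.02 and 77.20 kb of CIITA and at 5.6 kb of CD74 had no WT peak, too few to compare with these shares.

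The CD74 start held the best-scoring peak of both loci in every list. A region of chromosome 5 from 149789353 to 149794351, on both sides of the start, covered 4999 and 4976 bases in WT, 4756 and 4944 in CREBBP-KO and 4562 and 4778 in EP300-KO. All clones were within a narrow range, though the 4 knock-out clones were each a little below both WT clones. The centred difference was -0.0017 in CREBBP-KO (SE 0.09, limma's adjusted p = 0.999) and 0.11 in EP300-KO (SE 0.09, limma's adjusted p = 0.466). The EP300-KO difference was above 0 with the centring and -0.093 without it.

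By the authors' score, the CD74 start peak exceeded from 99.3% to 99.8% of the peaks of its list, at ranks from 68 to 242. The peak at the CIITA start ranked between 4083 and 9732. The edge of the CD74 peak that faces away from the gene lay at -2.35 kb from the start in both WT clones, at -2.26 and -2.30 kb in CREBBP-KO and at -1.93 and -2.15 kb in EP300-KO. On the gene side 5 clones ended between 2.62 and 2.65 kb, and the first CREBBP-KO clone, whose peak was broken in 2, at 1.74 kb.

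Beyond that upstream edge the lists held peaks in WT and none in the knock-outs. Over 5202 bases (chromosome 5, 149794461 to 149799662), from 2.46 to 7.66 kb before the start, the first WT clone had 8 regions with 2135 covered bases and the second WT clone 3 regions with 731. All 4 knock-out clones had none. The 3 regions of both WT clones were 494 and 454 bases (149794461 to 149794984), 208 and 128 bases (149799073 to 149799280) and 268 and 149 bases (149799395 to 149799662). The other 5 regions, of 131 to 476 bases, were seen in the first WT clone alone. All were too short for the limma fit, so no test bears on this stretch.

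The same absence held at 11.25 kb (149780617 to 149780880), with 250 and 115 bases in WT and none in any knock-out clone. In all, 4 of the 7 CD74 regions in both WT clones were lost in each knock-out, and they were the same 4, or 57.1%, against 3.23% of all regions lost in both. Since both comparisons use the same WT clones, the shared losses are not independent of each other. The lost regions were short, and short regions were lost often everywhere: of those with a WT mean under 250 bases, 21.3% were lost in CREBBP-KO and 45.6% in EP300-KO, and of those from 250 to 500 bases, 6.37% and 23.0%. When every list was held to its 35054 best-scoring peaks, 1 of the CD74 regions remained lost in each knock-out. The share of all regions lost at this list length was not counted. The flank then had 1178 and 454 bases in WT and none in the knock-outs.

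**Figure D4:**
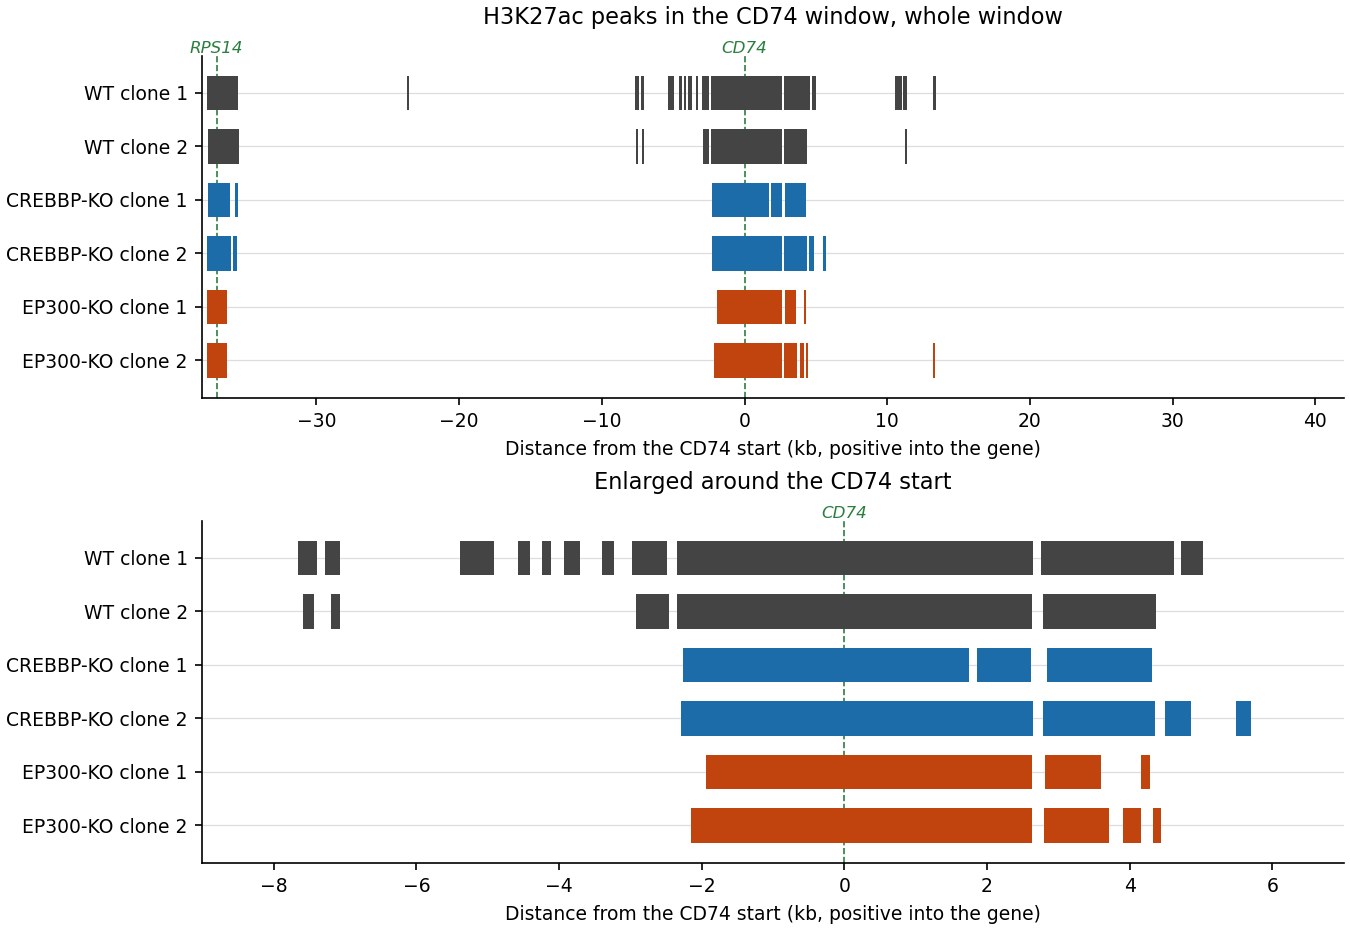
Peaks of each clone (blocks, to scale, coloured by genotype) against the distance from the CD74 start in kb, positive into the gene, for the whole window (top) and around the start (bottom). Dashed lines mark gene starts. The block over the start spans nearly the same bases in all 6 clones, and the stretch from 2.46 to 7.66 kb before it holds blocks in the WT clones alone.

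Inside CD74, a region centred at 3.9 kb (149786971 to 149789238) covered 2165 and 1588 bases in WT, 1473 and 1934 in CREBBP-KO and 917 and 1273 in EP300-KO. Both EP300-KO clones were below the other 4, and WT and CREBBP-KO overlapped. EP300-KO differed from WT by -0.52 (SE 0.19, limma's adjusted p = 0.167). At the far edge of the window stands the start of RPS14, a ribosomal protein gene (149827418 to 149829656), with 2185 and 2217 bases in WT, 1769 and 1967 in CREBBP-KO and 1408 and 1357 in EP300-KO. The 3 genotypes did not overlap there, and EP300-KO differed from WT by -0.43 (SE 0.09, limma's adjusted p = 0.0504), just short of the threshold. This share of the CD74 window's difference lay at the RPS14 start and not at the CD74 start. The last 4 regions of the window had no pattern by genotype: 1 at 13.32 kb with 169 bases in the first WT clone and 159 in the second EP300-KO clone, 2 in the first WT clone alone (486 bases at 10.77 kb and 118 at -23.58 kb) and 1 in the second CREBBP-KO clone alone (215 bases at 5.6 kb).

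The other genes of the pathway were represented by the region nearest to their start within 2 kb. Of 29 listed genes 19 had such a region and 15 entered the fit. No gene passed in CREBBP-KO against WT (3 with limma's unadjusted p under 0.05), 1 was lower and none higher in EP300-KO, and none passed in the direct comparison (4 with unadjusted p under 0.05). The shares of all regions given above are the background. Of the 20 genes that encode or serve class II itself, 11 were tested, with a median log2 difference of -0.093 in CREBBP-KO and 0.15 in EP300-KO.

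The gene that passed was HLA-DQA1, the alpha chain of HLA-DQ, with 3917 and 3988 bases in WT, 2380 and 3311 in CREBBP-KO and 1907 and 2128 in EP300-KO. Both EP300-KO clones were below all others, and both CREBBP-KO clones below WT. EP300-KO differed from WT by -0.74 (SE 0.11, limma's adjusted p = 0.026). The call ended without either WT clone (0.0602 and 0.0683) or the first EP300-KO clone (0.0869). HLA-DRB1, a beta chain of HLA-DR, followed the same order with 1869 and 1817, 1353 and 1513, and 1156 and 1285 bases.

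HLA-DQB1, the partner of HLA-DQA1, did not share this order, with 4394 and 4716 bases in WT, 3441 and 4810 in CREBBP-KO and 4489 and 4318 in EP300-KO. HLA-DRA, the alpha chain of HLA-DR, was too short for the test at 496 and 458 bases in WT, 0 and 177 in CREBBP-KO and 139 and 226 in EP300-KO, with all knock-out clones below WT. These genes are polymorphic and have close copies, and no source used here says how the authors placed reads among them. The partners of CIITA on class II promoters, RFX5, RFXANK, RFXAP, NFYA, NFYB and NFYC, were all tested and none passed in any comparison. CREB1 had from 427 to 466 bases in the 6 clones, below the filter, and was not tested. SPI1, IRF8 and MIF were tested, and none of them passed in any comparison. SPI1 and IRF8 are transcription factors that act on the B-cell promoter of CIITA, and MIF is the ligand of CD74. IRF4, PRDM1, CD44, NLRC5, LGMN, HLA-DPA1, HLA-DPB1, HLA-DMA, HLA-DMB and HLA-DOA had no region within 2 kb in any list.

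**Figure D5:**
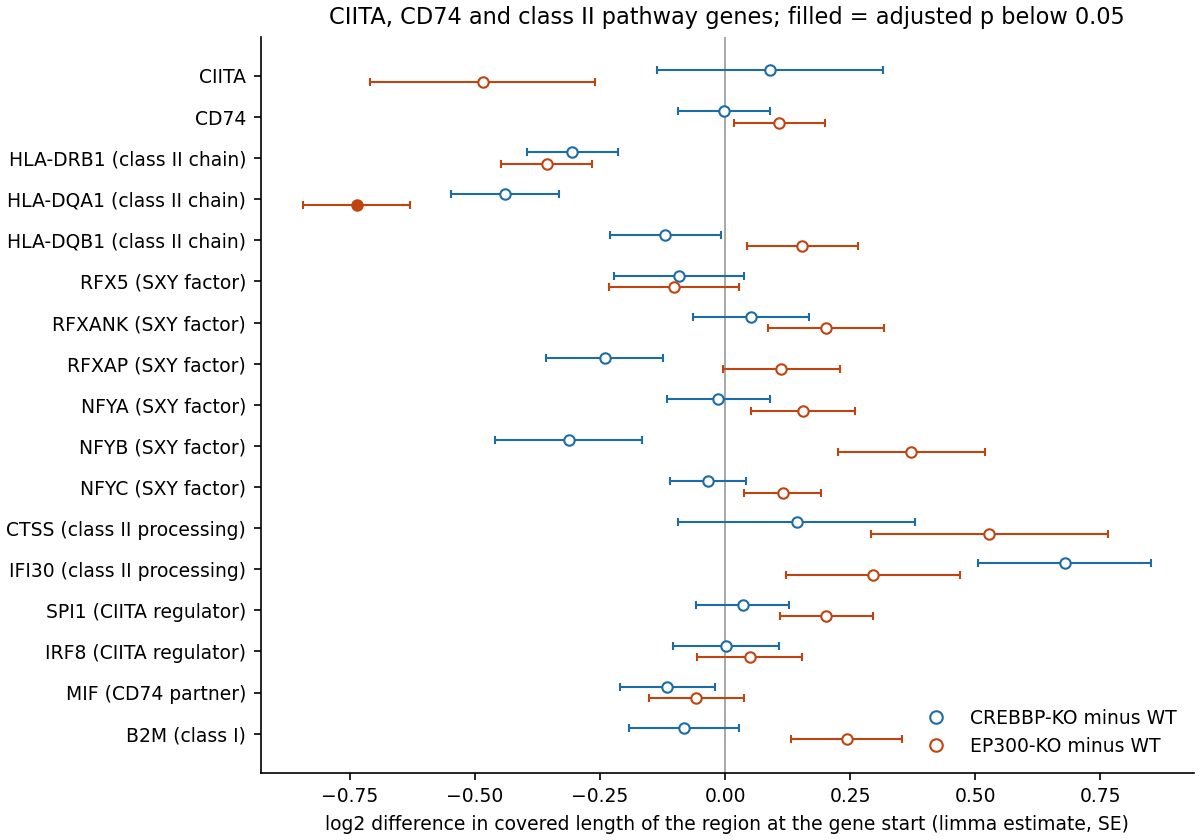
Log2 difference in covered length (limma estimate with its SE) of the region at the gene start for CIITA, CD74 and the 15 tested pathway genes, with the role of each gene in brackets. Blue is CREBBP-KO minus WT and orange EP300-KO minus WT. HLA-DQA1 in EP300-KO (-0.74) is the filled point, with an adjusted p below 0.05.

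The likeness of patterns was measured as the mean absolute difference of centred log2 values over the 6 clones, after removing the mean of each gene, among the 15 tested pathway genes. The start region of CIITA was nearest to those of HLA-DRB1 (0.223), RFX5 (0.230) and MIF (0.236). That of CD74 was nearest to SPI1 (0.0336), RFXANK (0.0343) and NFYA (0.0357). These values describe the 6 libraries and carry no test.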

How the data were processed

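H3K27ac ChIP-seq was made from 6 SUDHL4 clones, with an input each. CASAVA 1.8, Bowtie2 2.1.0, SAMtools 0.1.19 and build hg19 are named, per the submitters' processing notes. The caller of the peaks and its settings are not given in the sources used. Per the file headers, each deposited list sets 1 library against its own input. The authors' score per peak has no stated meaning and only ranked peaks within a list. Peak starts were taken as 0-based, an assumption that can shift a printed start by 1 base.

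Covered bases per window, region and genome tile were computed from these lists and tested with limma 3.58.1 (trend and robust; R 4.3.3). Alternatives changed the clones, centring, pseudocount, filter, overlap and list length. Regions named in full were those in all 6 clones, lost or gained, or past the threshold. The members and lists were chosen with earlier results of these data known. The hg19 gene starts (44) were taken from general knowledge, not from a deposited or reference file; their chromosomes matched the RefSeq GRCh38 table. Spacing to neighbours differed between the builds by at most 0.326 kb in 3 pairs, but by 11.3 kb for CIITA to DEXI, so CIITA distances hold only for the start used here. One marker of the fixed list is not reported here. Exon and intron positions on hg19 were not used here. The p-values measure the spread between clones.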

Additional observations from a re-analysis of the deposited data

Results flagged for a closer look

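Both knock-outs differed from each other, by the direct limma test, in 2 regions before the CIITA start. At -6.42 kb EP300-KO was higher than CREBBP-KO by 0.75 on the log2 scale (limma's adjusted p = 0.028), with both CREBBP-KO clones below WT. At -5.54 kb it was higher by 2.87 (limma's adjusted p = 0.037), with no covered base in either CREBBP-KO clone. The region at -5.54 kb met the filter only through WT and EP300-KO clones, and with no filter on low values limma's adjusted p was 0.020. Of the 16 tested members the regions at -6.42 and -5.54 kb were the only 2 past the threshold in the direct comparison. Of all regions 8.00% passed in either direction, 1259 lower and 330 higher in EP300-KO. Each call ended without either CREBBP-KO clone or without the first EP300-KO clone, and that at -5.54 kb also without the second. The 2 regions are neighbours and not independent of each other.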

How the results depend on the processing

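The 6 window differences passed the threshold in none of 78 alternatives. The CIITA window in CREBBP-KO ran from -0.059 to 0.0021 over the fits that each left out 1 clone. The CD74 window ran from -0.38 to -0.16 in CREBBP-KO and from -0.50 to -0.28 in EP300-KO. With quantile normalization the CIITA window gave 0.041 for EP300-KO minus WT and 0.14 for EP300-KO minus CREBBP-KO, and the CD74 window 0.12 for the latter; the cause was not tested. The CIITA start region in CREBBP-KO ran from -0.011 to 0.19 without 1 clone, and the CD74 start region from -0.097 to 0.094, with 0.030 without the second WT clone and 0.0020 with a pseudocount of 10. With no centring the CD74 start region gave -0.093 for EP300-KO minus WT and -0.054 for EP300-KO minus CREBBP-KO. Members called lower in EP300-KO than in WT numbered 0 to 2 without 1 clone, and 1 each with no centring, quantile normalization or a pseudocount of 1000 (RPS14, adjusted p = 0.026, 0.033 and 0.027). Those lower than in CREBBP-KO numbered 0 to 1 without 1 clone and 2 with no centring. Those higher than in CREBBP-KO numbered 0 to 2 without 1 clone, and 1 each with no centring, quantile normalization or equal list length. At equal list length 1 CD74 region was lost in CREBBP-KO and 1 in EP300-KO. With at least 50% of a region required, CIITA had 1 gain in CREBBP-KO and 4 losses in EP300-KO. The shares of all regions called, lost or gained under these alternatives were not counted, so these counts have no background beside them. The call at -6.42 kb was lost with no centring (adjusted p = 0.0722), and that at -5.54 kb with quantile normalization (0.0738) and equal list length (0.0504). The size at -5.54 kb ran from 0.72 to 6.00 with the pseudocount. No paired analysis was possible because the replicate numbers only name clones and nothing ties a clone to one of another genotype. Depth is unknown, and 2 clones a genotype limit every statement.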
